A study of Mus musculus with 8 samples.

Results

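The genes that carry iron into cells, through the plasma and out of cells, together with the hepcidin genes that set this traffic, were followed in bulk RNA-seq of 4 mouse tissues. The group was fixed by name as Hamp, Hamp2, Slc40a1, Slc11a2, Cybrd1, Heph, Tfrc, Tfr2, Trf and Hfe, and all 10 were found among the 52195 genes of the deposited table. The study sequenced liver, kidney, small intestine and lung, each as 2 libraries, as test material for a method that estimates cell-type proportions in bulk data. All libraries came from C57BL/6 mice aged 6 to 10 weeks, given as male C57BL/6J in the study's methods, and the labels name no altered allele, agent or time point. The 2 libraries of a tissue came from separate mice, and since every mouse gave all 4 tissues, libraries of different tissues share animals, but the replicate numbers were not tied to individual mice and the tests treat the 8 libraries as independent. RNA was made from powdered tissue, so that fewer cells of a type and less RNA per cell cannot be told apart.

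Iron from food is reduced at the surface of the duodenal enterocyte by the reductase encoded by Cybrd1, imported by the divalent metal transporter encoded by Slc11a2 and released into blood by ferroportin, the product of Slc40a1, with the ferroxidase hephaestin (Heph) oxidizing the iron as it leaves. In plasma it is bound by transferrin (Trf), which cells take up through transferrin receptor 1 (Tfrc), while the liver senses the iron load of transferrin through transferrin receptor 2 (Tfr2) and the HFE protein (Hfe). The hepatocyte answers with hepcidin (Hamp), a peptide hormone that blocks ferroportin and has it degraded, so that less iron reaches the plasma. The mouse carries a further copy of the hepcidin gene, Hamp2.

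Expression is given as FPKM, read fragments scaled to library size and to transcript length, so that it is a level per transcript length. Differences were tested on log2(FPKM + 1) with limma, by setting a tissue against the average of the other 3, and a gene counted as called where the Benjamini-Hochberg adjusted p was under 0.05 and the log2 difference over 1. All 10 genes were among the 16328 that reached 1 FPKM in at least 2 libraries, but Hamp2 and Tfr2 did so only through liver and Cybrd1 only through lung, so these 3 could not have passed without differing between tissues.

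The FPKM steps placed depth between 9164170 and 21444568 reads per library. Defining markers matched the labels: the summed hepatocyte markers lay between 48117 and 53078 FPKM in liver and between 26.6 and 521 FPKM elsewhere, and enterocyte, proximal tubule and alveolar type 2 markers each peaked in the labelled organ. The small intestine libraries differed in content, with the ileal gene Fabp6 at 0.223 and 25.4 FPKM, the duodenal gene Pdx1 at 4.85 and 1.76 FPKM, and summed pancreatic acinar markers at 1540 and 672 FPKM in replicates 1 and 2. Lung held summed cardiac muscle markers of 216 and 222 FPKM, against at most 9.10 FPKM in any other library, and globin-rich erythroid marker sums of 15764 and 19678 FPKM. The deposited values were not centred between tissues: the median log2 difference of all genes was 0.82 for lung, -0.72 for liver, -0.34 for kidney and -0.01 for the small intestine. After scaling by median of ratios, which sets the typical gene level between libraries, these medians lay between -0.10 and -0.05, and a direction that depends on this scaling is stated as such below.

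Liver was the tissue with most calls among the iron genes. As deposited, 5 of the 10 were higher in liver (Hamp, Hamp2, Slc40a1, Tfr2 and Trf), where 6.56% of all genes were called higher (3 without liver replicate 1, when Hamp2 and Tfr2 no longer passed the filter), and 3 were lower (Slc11a2, Heph and Tfrc), where 32.7% of all genes were called lower. Since Hamp2 and Tfr2 passed the filter only through liver, and Cybrd1 only through lung, their calls there were not independent of the filter. Median-of-ratios scaling left 9 of the 10 genes to test, since Cybrd1 no longer passed the filter. The liver counts were then 6 and 1, the added gene being Hfe and the lower gene Heph, against 13.3% and 14.6% of all genes. In small intestine, 2 genes were higher (Heph and Tfrc, against 13.7% of all genes) and 4 were lower (Hamp, Tfr2, Trf and Hfe, against 11.3%), and both counts were the same with median-of-ratios scaling, against 13.7% and 12.2% of all genes. In lung, 2 were higher (Cybrd1 and Hfe, against 40.7%) and 2 were lower (Slc40a1 and Tfr2, against 8.26%), but with median-of-ratios scaling the lung counts were 0 and 6 of the 9 tested, against 15.1% and 16.9%. In kidney none was called higher (against 8.65%) and 4 were lower (Hamp, Heph, Tfr2 and Trf, against 16.1%). With median-of-ratios scaling the kidney counts were 0 and 3, against 12.3% and 12.7%. As deposited, 0 of the 10 were higher in kidney also at an unadjusted p under 0.05 with limma, and 0 with limma-voom on recovered reads under the call rule above, but with median-of-ratios scaling Slc11a2 lay 0.59 higher in kidney, short of the limit of 1.

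**Figure D1:**
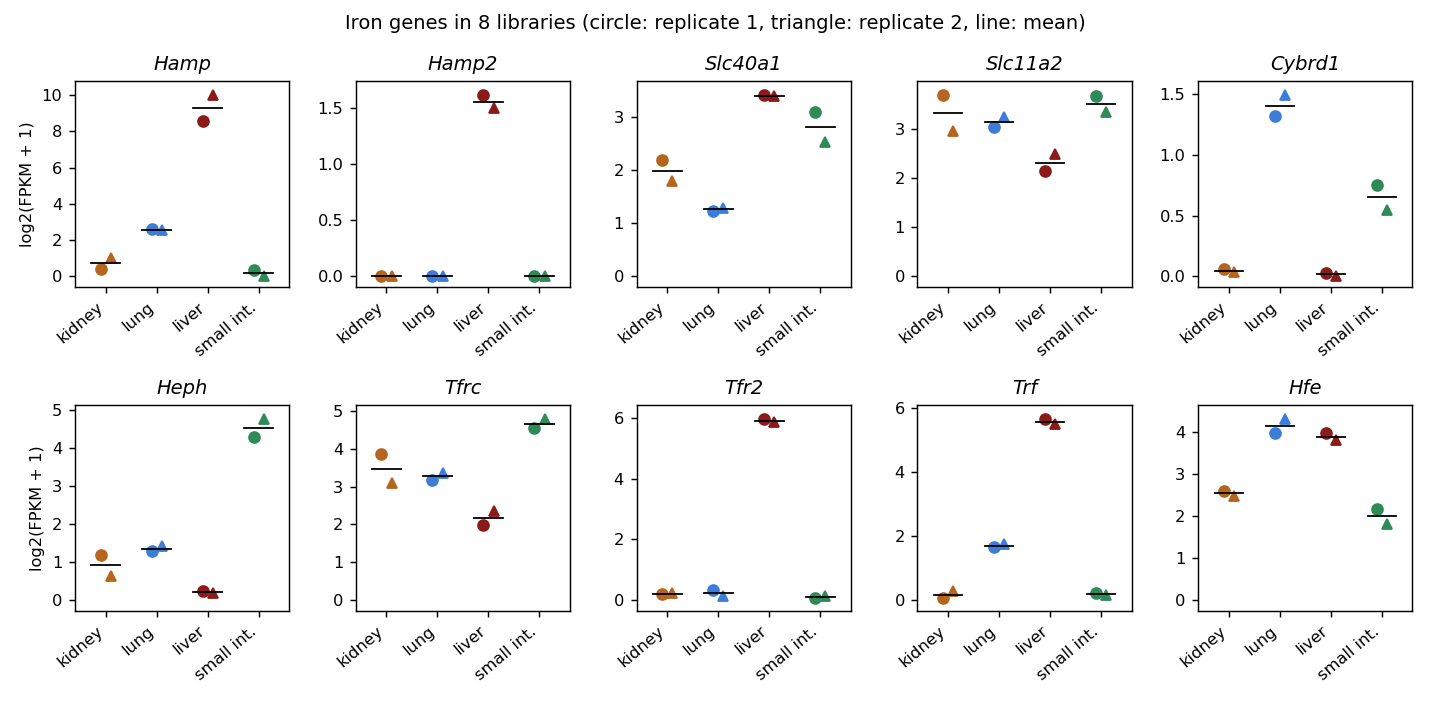
Level of each iron gene on the log2(FPKM + 1) scale (vertical axis, a separate range for each gene) in kidney, lung, liver and small intestine (horizontal axis), with a circle for replicate 1, a triangle for replicate 2 and a line for the mean of the 2. Hamp, Hamp2, Tfr2 and Trf peak in liver, Heph and Tfrc in small intestine, and Cybrd1 in lung.

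Hepcidin was a liver transcript in these data. Hamp (ENSMUSG00000050440.8, minus strand of chromosome 7, 30942368 to 30944032, GRCm38) was measured at 374 and 1008 FPKM in liver, 5.0 and 4.91 FPKM in lung, 0.341 and 0.986 FPKM in kidney, and 0.261 and 0 FPKM in small intestine. Both liver libraries stood far above the other 6, with lung in between and kidney and small intestine near the detection limit. The liver values rest on 1407 and 4267 reads, those of lung on 20 and 25 reads, those of kidney on 3 and 7 reads and those of small intestine on 1 and 0 reads. The mean in liver was 691 ± 448 FPKM (SD, n = 2), and the log2 difference from the other tissues was 8.12 (SE 0.35; adjusted p = 1.36e-06, limma with Benjamini-Hochberg adjustment). Kidney and small intestine were called lower, against a mean that includes liver. In the two-sided exact permutation test over the 28 ways of choosing 2 of the 8 libraries, p was 0.0357, the smallest that this design allows. For every gene this test was made on the tissue with the highest mean, and its p does not allow for that choice.

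The second hepcidin gene was found in liver alone and at a far lower level. Hamp2 (ENSMUSG00000056978.8, minus strand of chromosome 7, 30922372 to 30924681), which lies beside Hamp, was measured at 2.06 and 1.83 FPKM in liver, from 11 reads in each library, and was listed at 0 in the other 6. Against the largest 3-read limit of those libraries, 0.550 FPKM, its liver mean of 1.94 ± 0.164 FPKM (SD, n = 2) was at least 3.53-fold higher (fitted log2 difference 1.56, adjusted p = 2.15e-06, limma with Benjamini-Hochberg adjustment). Since Hamp2 passed the filter only through liver, this p is not independent support for the difference. Hamp exceeded Hamp2 182-fold in liver replicate 1 and 552-fold in liver replicate 2. The transcripts are alike, with 33.7% of the 31-base words of Hamp also present in Hamp2 and 23.1% of those of Hamp2 present in Hamp, so reads assigned to Hamp2 are uncertain. An antisense gene, Gm44662, covers 15.3% of the exon length of Hamp2, and how the counting used strand is not given in the sources used here.

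The hepcidin promoter is a known meeting point of iron and inflammation signals: BMP and SMAD proteins act through a GGCGCC element near the start site, and STAT3 acts through a neighbouring TTCNNNGAA element after interleukin 6. The RefSeq windows before the start sites (GRCm38.p6, 250 bases, minus strand of chromosome 7) are shown because the neighbouring genes differ so widely in level. The Hamp window is chr7:30944030-30944279 and the Hamp2 window is chr7:30924182-30924431, and capitals mark the GGCGCC element in Hamp and the bases aligned to it in Hamp2. The Hamp2 window lies wholly inside the GENCODE M21 gene, whose 5′ end is at 30924681, so the annotations differ on the start site of Hamp2. Whether any difference between the windows bears on the levels was not tested.
Hamp: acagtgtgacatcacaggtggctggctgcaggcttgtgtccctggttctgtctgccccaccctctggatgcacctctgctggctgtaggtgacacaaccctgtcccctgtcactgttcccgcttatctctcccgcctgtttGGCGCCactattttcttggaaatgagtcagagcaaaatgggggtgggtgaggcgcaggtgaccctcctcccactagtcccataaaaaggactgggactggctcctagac
Hamp2: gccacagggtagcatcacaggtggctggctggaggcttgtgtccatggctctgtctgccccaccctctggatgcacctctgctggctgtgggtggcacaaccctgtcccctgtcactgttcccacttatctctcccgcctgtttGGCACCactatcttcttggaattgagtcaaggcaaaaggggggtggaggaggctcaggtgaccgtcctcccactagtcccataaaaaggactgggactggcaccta
The windows were identical at 91.9% of 247 aligned bases, with 20 substitutions. The substitution G145A (Hamp base, position counted from 1 at the 5′ end of the Hamp window, Hamp2 base), falls within the capitals, so the Hamp2 window held GGCACC in place of GGCGCC. The letters TTCTTGGAA were present in both windows, starting 97 bases before the RefSeq start site of Hamp and 94 before that of Hamp2. Each motif reads the same on both strands, and GGCGCC was found in 9.59% of 32851 RefSeq windows of this length and TTCNNNGAA in 7.02%. Windows were present for 6 of the 10 genes, and GGCGCC was also found in those of Cybrd1 and Tfrc, which were not high in liver.

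Hamp differed between the liver libraries more than nearly all genes at 10 FPKM or more. Replicate 2 was 2.69-fold above replicate 1, and of 2560 genes with a mean of at least 10 FPKM in liver only 8, or 0.312%, Hamp included, had so large a gap. The other 7 are named after their values were seen. Id2, an inhibitor of DNA binding that BMP signals induce, was 14.1 FPKM in replicate 1 and 45.5 FPKM in replicate 2, and was the only other gene of the 8 that was higher in replicate 2. The remaining 6 were lower there: Cyp4a10 (365 and 109 FPKM) and Cyp4a14 (178 and 53.8 FPKM), fatty acid hydroxylases, Lpin1 (36.7 and 9.48 FPKM) and Thrsp (108 and 38.4 FPKM), both of lipid synthesis, Rgs16 (16.9 and 3.48 FPKM), a brake on G-protein signals, and Mt1 (19.3 and 4.51 FPKM), a metallothionein. What these libraries differed in was not recorded in the labels, and its part in the Hamp gap was not tested.

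Among 4 genes that BMP signals induce, the ratio of liver replicate 2 to replicate 1 was between 1.10 and 2.31. It was 2.31 for Smad6, a feedback inhibitor of BMP signals (20 and 52 reads), and 1.64 for Atoh8, a transcription factor that BMP induces in hepatocytes (134 and 247 reads). Id1, a direct BMP target, had a ratio of 1.38 on 9 and 14 reads, and the inhibitor Smad7 a ratio of 1.10. The ligands Bmp6 and Bmp2 had ratios of 1.05 and 0.909, and the acute-phase gene Hp, haptoglobin, a ratio of 1.01. Hamp2 had a ratio of 0.888, on 11 reads in each liver, and Tfr2 of 0.930, so that neither shared the higher level of Hamp in replicate 2. With a single pair of livers these ratios have no replicate check.

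**Figure D2:**
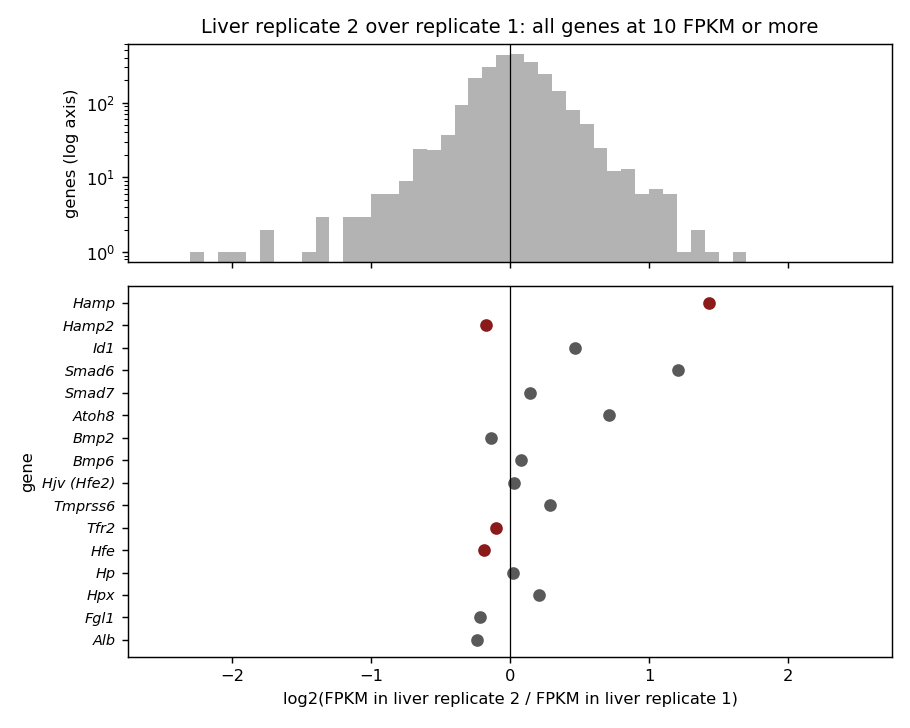
Ratio of liver replicate 2 to liver replicate 1 on the log2 scale (horizontal axis): above, the number of genes at each ratio among 2560 genes with a mean of at least 10 FPKM (logarithmic vertical axis), and below, Hamp and related genes, with the iron genes of the named group in red and others in grey. Hamp lies at a 2.69-fold ratio in the right tail, with Smad6 at 2.31-fold nearest to it among the genes listed below.

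Lung held the next highest level of Hamp. The lung level was higher than that of kidney by a log2 difference of 1.87 (SE 0.43; adjusted p = 0.00547, limma with Benjamini-Hochberg adjustment), where 50.3% of all genes were called between these tissues, but with median-of-ratios scaling the difference was 1.04 with an adjusted p of 0.0698, and limma-voom on recovered reads did not call it. In percent of the liver mean, lung Hamp was 0.716% and kidney Hamp 0.0960%. Hepatocyte markers measured in the same way were lower in lung, Alb at 0.169%, Apoa2 at 0.214%, Serpina1c at 0.189% and Ttr at 0.208%, while Cyp2e1, which lung itself can express, was 0.618%. In kidney, beside Hamp at 0.0960%, the markers ranged from Alb at 0.0879% through Apoa2 at 0.130% and Serpina1c at 0.416% to Ttr at 1.95% and Cyp2e1, which kidney can also express, at 20.4%. These shares of Hamp depend on the liver library used: against liver replicate 1 alone they were 1.32% for lung and 0.177% for kidney, and against liver replicate 2 alone 0.491% and 0.0658%. Against replicate 2 alone, lung Hamp was thus below Cyp2e1 (0.707%) but above the other 4 markers (0.183% to 0.211%), and kidney Hamp was below all 5, the lowest being Alb at 0.0958%. Cardiac muscle, another known site of hepcidin expression, was represented in the lung libraries by all 4 of its markers (Myl7 at 109 and 107 FPKM, Actc1 at 81.8 and 89.6 FPKM), and the summed markers of macrophages, which also express hepcidin, were 210 and 175 FPKM in lung; their part in the lung value was not tested.

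**Figure D3:**
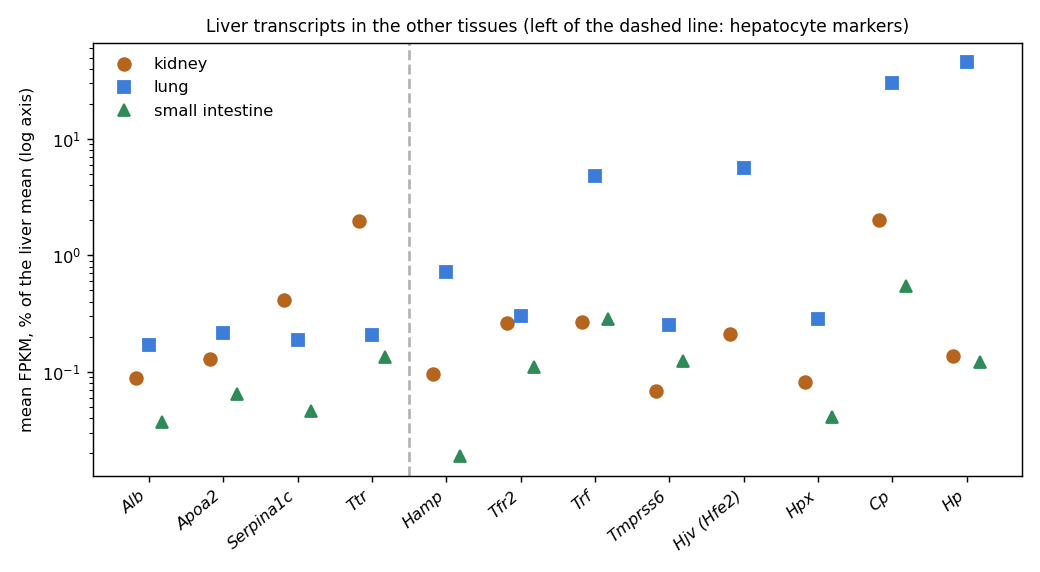
Mean FPKM in kidney (circles), lung (squares) and small intestine (triangles) as a percentage of the liver mean on a logarithmic axis, for 4 hepatocyte markers left of the dashed line and 8 liver iron and heme genes right of it; a gene listed at 0 has no symbol. In lung the 4 markers lie between 0.169% and 0.214%, with Hamp at 0.716%, Trf at 4.79% and Hp at 45.5%. A further hepatocyte marker, Cyp2e1, is not drawn and was 0.618% in lung and 20.4% in kidney.

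Of the sensors that act on hepcidin, Tfr2 was largely a liver transcript and Hfe was shared by lung and liver. Tfr2 (ENSMUSG00000029716.13, chromosome 5, 137569840 to 137587481) was measured at 61.1 and 56.9 FPKM in liver, 0.260 and 0.0928 FPKM in lung, 0.151 and 0.160 FPKM in kidney and 0.0493 and 0.0815 FPKM in small intestine. Both liver libraries lay far above all others, and no step between lung, kidney and small intestine was called. The liver difference was 5.73 on the log2 scale (SE 0.13; adjusted p = 7.62e-08, limma with Benjamini-Hochberg adjustment), with p = 0.0357 in the exact permutation test. As Tfr2 passed the filter only through liver, the limma p is not independent support for this difference.

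Hfe (ENSMUSG00000006611.15, minus strand of chromosome 13, 23702034 to 23710854), an MHC class I-like protein, was measured at 14.7 and 18.6 FPKM in lung, 14.7 and 12.9 FPKM in liver, 5.05 and 4.55 FPKM in kidney, and 3.5 and 2.5 FPKM in small intestine. Lung and liver were both above kidney and small intestine, with the liver-to-kidney step called (log2 difference 1.35, SE 0.20, adjusted p = 0.00118, limma with Benjamini-Hochberg adjustment), a comparison in which 23.1% of all genes were called. Between lung and liver, the log2 difference of 0.25 was not called as deposited, and with median-of-ratios scaling it turned to -1.30 with liver the higher. The lung difference from the other tissues, 1.33 as deposited, was 0.23 with median-of-ratios scaling, while that of liver went from 1.0, just under the limit, to 1.96. The exact permutation p for the lung libraries was 0.0714.

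Of the genes that work beside these sensors, Hfe2, Tmprss6 and Fgl1 were called higher in liver under both scalings. Hfe2, which encodes the BMP co-receptor hemojuvelin, was 18.9 and 19.2 FPKM in liver, 1.01 and 1.15 FPKM in lung and at most 0.0570 FPKM elsewhere. Tmprss6, the protease that cleaves hemojuvelin and so lowers hepcidin, was 114 and 140 FPKM in liver and at most 0.378 FPKM in any other library. Fgl1, a liver-secreted antagonist of BMP, was 31.2 and 26.7 FPKM in liver. The liver differences of Hfe2, Tmprss6 and Fgl1 were 3.96, 6.75 and 4.68 on the log2 scale. Tmprss6 and Fgl1 passed the filter on low values only through liver, so their calls there were not independent of the filter. The BMP ligands themselves were not called higher in liver as deposited, although Bmp2 was with median-of-ratios scaling (1.39): Bmp6, known as the iron-regulated ligand, was 25.0 and 32.1 FPKM in lung against 0.895 and 0.944 FPKM in liver, and Bmp2 was 2.58 and 2.34 FPKM in liver against 2.49 and 2.83 FPKM in small intestine. Summed liver sinusoidal endothelial markers, the known source of both ligands in liver, were 34.9 and 29.6 FPKM.

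Transferrin followed the same order as Hamp in its upper ranks. Trf (ENSMUSG00000032554.15, minus strand of chromosome 9, 103204001 to 103230444) was measured at 49.4 and 44.1 FPKM in liver, 2.13 and 2.35 FPKM in lung, 0.161 and 0.106 FPKM in small intestine, and 0.0421 and 0.209 FPKM in kidney. The liver libraries were the highest, the lung libraries were next and did not overlap with the remaining 4, and small intestine and kidney overlapped. The liver difference was 4.89 on the log2 scale (SE 0.14; adjusted p = 1.79e-07, limma with Benjamini-Hochberg adjustment), and the step from lung to small intestine was 1.51 (adjusted p = 0.000170), falling to 0.97 with median-of-ratios scaling. At 4.79% of the liver mean, lung Trf exceeded the 0.169% of Alb. An annotated readthrough gene on the same strand, Gm20425, shares 63.5% of the exon length of Trf and was listed at 0 in all 8 libraries, so that the Trf values depend on how reads shared between these genes were counted.

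Transferrin receptor 1 was arranged in nearly the opposite way. Tfrc (ENSMUSG00000022797.16, chromosome 16, 32608920 to 32632794) was measured at 22.4 and 26.6 FPKM in small intestine, 13.6 and 7.54 FPKM in kidney, 8.10 and 9.34 FPKM in lung, and 2.93 and 4.07 FPKM in liver. Small intestine was above all other libraries, kidney and lung overlapped, and the liver libraries were lowest as deposited. The small intestine difference was 1.7 on the log2 scale (SE 0.22; adjusted p = 0.000460, limma with Benjamini-Hochberg adjustment; exact permutation p = 0.0357). The liver difference of -1.65 (adjusted p = 0.000358) became -0.80 and was not called with median-of-ratios scaling, and the step from lung to liver, 1.12 as deposited, became -0.27. Small intestine over kidney was likewise not called with that scaling (0.89), whereas kidney over lung was (1.17). Between the receptors within a library, Tfr2 was 20.9-fold and 14.0-fold above Tfrc in liver, whereas Tfrc exceeded Tfr2 by 31.2-fold to 326-fold in lung, kidney and small intestine replicate 2, and small intestine replicate 1 held only 2 reads of Tfr2; such a ratio does not depend on the scaling between libraries.

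Several iron transcripts are also under control after transcription. Iron regulatory proteins, encoded by Aco1 and Ireb2, bind a hairpin called the iron-responsive element when iron is scarce, which keeps Tfrc mRNA stable and blocks translation of ferroportin and ferritin mRNA. The transcript strand was searched for the hairpin's letters: a C, then any 5 bases, then CAGTG followed by A, C or T. The 5 bases on each side of the loop had to be able to pair. A match lay in a UTR of 2 of the 10 genes and of 0.590% of the 22527 protein-coding genes searched (GENCODE M21). The pattern allows no mismatch or bulge and so misses known elements such as that in the 3′ UTR of Slc11a2, and the lack of a match says nothing of the other genes. The matches are shown because this hairpin ties the iron state of a cell to these mRNAs, and capitals mark the loop. Tfrc held 4 in its 3′ UTR, Slc40a1 held 1 in its 5′ UTR, and the ferritin genes Fth1 and Ftl1 held 1 each in theirs.
Tfrc element 1: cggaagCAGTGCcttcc
Tfrc element 2: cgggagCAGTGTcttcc
Tfrc element 3: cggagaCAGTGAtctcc
Tfrc element 4: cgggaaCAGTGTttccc
Slc40a1: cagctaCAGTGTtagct
Fth1: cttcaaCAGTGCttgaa
Ftl1: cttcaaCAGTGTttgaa
A match is a description of the letters and not a measurement of binding. Of the binding proteins, Aco1 was higher in kidney (log2 difference 1.02) and lower in lung (-1.87), and with median-of-ratios scaling also higher in liver (1.22). Ireb2, between 2.77 and 9.90 FPKM, was not called in any tissue.

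Ferroportin, the only known iron exporter and the target of hepcidin, was highest in the tissue with most Hamp. Slc40a1 (ENSMUSG00000025993.10, minus strand of chromosome 1, 45908068 to 45926523) was measured at 9.57 and 9.48 FPKM in liver, 7.54 and 4.75 FPKM in small intestine, 3.53 and 2.45 FPKM in kidney, and 1.34 and 1.45 FPKM in lung. No tissues overlapped, yet none of the 3 steps between neighbours in this order was called as deposited, while with median-of-ratios scaling liver over small intestine (1.38, adjusted p = 0.000647) and kidney over lung (1.34, adjusted p = 0.000684; limma with Benjamini-Hochberg adjustment) passed. Against the mean of the other tissues, liver was higher by 1.38 on the log2 scale (SE 0.19, adjusted p = 0.000440) and lung lower, at -1.47 (SE 0.19, adjusted p = 0.000253; limma with Benjamini-Hochberg adjustment for both), and with median-of-ratios scaling both were larger, at 2.21 and -2.18. The exact permutation p for liver was 0.0714. Hepatic macrophages, which recycle iron from red cells through ferroportin, were represented by summed Kupffer cell markers of 96.2 and 96.9 FPKM in liver against at most 9.24 FPKM elsewhere, and their part in the liver value was not tested.

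The importer of intestinal absorption was spread over the tissues. Slc11a2 (ENSMUSG00000023030.16, minus strand of chromosome 15, 100387898 to 100425072) was measured at 11.8 and 9.19 FPKM in small intestine, 11.9 and 6.76 FPKM in kidney, 7.27 and 8.51 FPKM in lung, and 3.42 and 4.63 FPKM in liver. Small intestine, kidney and lung overlapped with their neighbours, and no step between them was called as deposited, although kidney over lung passed with median-of-ratios scaling (1.12, adjusted p = 0.00120, limma with Benjamini-Hochberg adjustment). Only liver was called, lower at -1.01 (SE 0.22; adjusted p = 0.00409, limma with Benjamini-Hochberg adjustment), and that difference became -0.15 with median-of-ratios scaling; it also missed the limit without kidney replicate 1 (-0.89), liver replicate 1 (-0.83), lung replicate 2 (-0.98) or small intestine replicate 1 (-0.95). The antisense gene Gm5475 covers 6.33% of the exon length of Slc11a2. Within a library, Slc40a1 was 2.80-fold and 2.05-fold the level of Slc11a2 in liver, and between 0.170-fold and 0.640-fold in the other 6 libraries.

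Cybrd1 (ENSMUSG00000027015.4, chromosome 2, 71117923 to 71142926), the surface iron reductase of the duodenum, was low in every tissue. It was measured at 1.5 and 1.81 FPKM in lung, 0.680 and 0.463 FPKM in small intestine, 0.0437 and 0.0216 FPKM in kidney, and 0.0204 and 0 FPKM in liver. The lung libraries were the highest and the small intestine libraries were next, with no overlap. The lung difference was 1.17 on the log2 scale (SE 0.09; adjusted p = 1.90e-05, limma with Benjamini-Hochberg adjustment; exact permutation p = 0.0357), which understates the ratio of so low a gene. As Cybrd1 passed the filter only through lung, the limma p is not independent support for this difference. After median-of-ratios scaling Cybrd1 no longer reached 1 FPKM in 2 libraries and was not tested. With quantile normalization, which kept it in the test, it was not called in lung, and as deposited its lung difference lay 0.35 above the median of all genes there.

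Hephaestin had the largest positive difference in small intestine of the 10 genes. Heph (ENSMUSG00000031209.14, chromosome X, 96455359 to 96574485) was measured at 18.7 and 26.2 FPKM in small intestine, 1.44 and 1.66 FPKM in lung, 1.29 and 0.543 FPKM in kidney, and 0.185 and 0.139 FPKM in liver. Both intestinal libraries exceeded every other library, and their level differed from the other tissues by 3.71 on the log2 scale (SE 0.20; adjusted p = 4.69e-06, limma with Benjamini-Hochberg adjustment; exact permutation p = 0.0357). Liver was lower, at -2.05, and was also called lower with median-of-ratios scaling, and lung and kidney were not told apart (log2 difference 0.44, turning to -0.12 with median-of-ratios scaling). Ceruloplasmin (Cp), the plasma ferroxidase made by the liver, was highest in liver and lowest in small intestine, at 118 and 109 FPKM in liver, 39.1 and 29.8 FPKM in lung, 2.94 and 1.62 FPKM in kidney and 0.670 and 0.572 FPKM in small intestine. Heph exceeded Cp 28-fold and 45.8-fold in small intestine, while Cp exceeded Heph 636-fold and 781-fold in liver.

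The intestinal values of these genes can be set against the unequal content of the small intestine libraries. Replicate 1, with the higher Pdx1 and almost no Fabp6, had the higher Slc40a1, Slc11a2 and Cybrd1, while replicate 2 had the higher Heph and Tfrc, by 1.40-fold and 1.19-fold. Such gaps were common: of 3869 genes at 10 FPKM or more in small intestine, 22.0% had a gap at least as large as that of Heph, 51.5% as that of Tfrc and 34.8% as that of Slc11a2. The proton-coupled folate transporter gene Slc46a1, also described as a heme carrier of the duodenum, was 77.8 FPKM in replicate 1 and 48.5 FPKM in replicate 2. Summed enterocyte markers were 5197 and 7133 FPKM. The part of the intestinal segment in these differences was not tested.

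**Figure D4:**
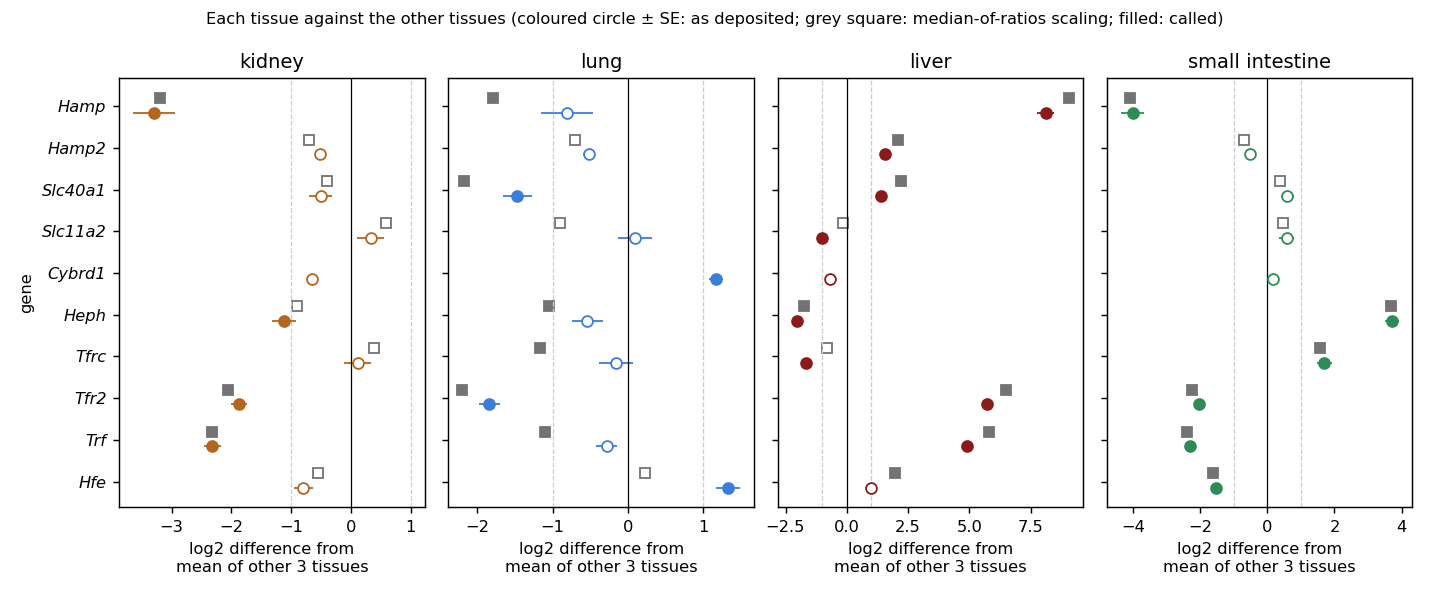
Log2 difference of each iron gene in kidney, lung, liver and small intestine (a panel per tissue, each with its own horizontal range) from the mean of the other 3 tissues, on the log2(FPKM + 1) scale. Coloured circles with bars give the limma estimate ± SE as deposited, grey squares the value after median-of-ratios scaling, filled symbols are called, and the dashed lines mark a difference of 1; in lung every square lies to the left of its circle, and no square is called higher there.

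The tissues were then put in order for each gene, which gave 30 steps between neighbours. The order came from the same values that were then tested, and the p-values do not allow for that. Hamp2, listed at 0 outside liver, has no true order among the other tissues. For Hamp2, Tfr2 and Cybrd1 the limit of the filter given above holds here too. As deposited, 10 steps were called, 5 of them beside liver as the higher tissue (Hamp, Hamp2, Tfr2, Trf and, over kidney, Hfe). Of all genes, 62.7% were called between lung and liver, 50.3% between kidney and lung, 40.6% between lung and small intestine, 36.2% between liver and small intestine, 29.5% between kidney and small intestine, and 23.1% between kidney and liver. The other called steps were lung over kidney for Hamp, lung over small intestine for Trf, small intestine over lung for Heph, small intestine over kidney for Tfrc and lung over liver for Tfrc. Several of these calls depended on the scaling. With median of ratios, lung over kidney for Hamp (1.04), lung over small intestine for Trf (0.97), small intestine over kidney for Tfrc (0.89) and lung over liver for Tfrc (-0.27) were not called. The steps called newly were liver over small intestine (1.38) and kidney over lung (1.34) for Slc40a1, kidney over lung for Slc11a2 (1.12) and Tfrc (1.17), and, with the order of the tissues turned, liver over lung for Hfe.

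Iron genes outside the named group were described from 8 lists of 69 genes, of which 63 were tested. As deposited, 14 were called higher and 22 lower in liver. The counts were 24 and 7 for lung, 11 and 24 for kidney, and 9 and 20 for small intestine, against the shares of all genes given above. With median-of-ratios scaling the counts were 20 and 8 for liver, 9 and 16 for lung, 15 and 20 for kidney, and 7 and 22 for small intestine. The balance of the lung and liver totals thus turned with the scaling.

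Ferritin heavy chain transcripts were abundant in every tissue. Fth1 was 3860 and 5062 FPKM in kidney, 4714 and 2735 FPKM in small intestine, 2229 and 2115 FPKM in lung, and 1170 and 890 FPKM in liver. Kidney was higher (log2 difference 1.15) and liver lower (-1.67, but -0.65 and not called with median-of-ratios scaling). The light chain Ftl1, between 73.3 and 203 FPKM, was not called in any tissue as deposited, but with median-of-ratios scaling it was higher in liver (1.54) and lower in lung (-1.05) and small intestine (-1.02). It shares sequence with close copies such as Ftl2, so that its level is uncertain. Of the 5 storage genes tested, which include the ferritin turnover receptor Ncoa4 and the iron chaperones Pcbp1 and Pcbp2, Fth1 alone was called as deposited, and with median-of-ratios scaling 3 were lower in lung, against 16.9% of all genes.

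Uptake routes beside transferrin were divided between the tissues. Of 8 genes tested, kidney had 3 higher and 3 lower under both scalings, against 8.65% and 16.1% of all genes as deposited and 12.3% and 12.7% with median of ratios. Lung had 5 and 1 as deposited, against 40.7% and 8.26%, and 3 and 2 with median of ratios, against 15.1% and 16.9%. Liver had 1 and 5, against 6.56% and 32.7%, and then 1 and 3, against 13.3% and 14.6%. Small intestine had 2 and 4, against 13.7% and 11.3%, and then 1 and 4, against 13.7% and 12.2%. The endocytic receptors of the proximal tubule, Lrp2 (65.5 and 26.1 FPKM) and Cubn (14.7 and 5.90 FPKM), were higher in kidney, and Cubn was also higher in small intestine (5.20 and 8.50 FPKM). Slc39a14, the importer of iron not bound to transferrin, was 7.40 and 7.71 FPKM in liver and 8.01 and 8.27 FPKM in small intestine, called higher in both, although the intestinal call was lost with median-of-ratios scaling (0.96). The iron-binding secreted proteins Lcn2 (133 and 76.4 FPKM) and Ltf (38.9 and 22.2 FPKM) and the importer Slc39a8 (26.3 and 30.0 FPKM) were higher in lung under both scalings. Ltf passed the filter only through lung, so its call there was not independent of the filter.

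Among the 6 endosomal and lysosomal genes, Steap4, a ferrireductase, was higher in liver (18.3 and 17 FPKM) and in lung (11.7 and 9.21 FPKM, not called with median-of-ratios scaling), and Steap3, the reductase of the transferrin cycle, stayed between 1.34 and 4.68 FPKM and was not called as deposited. Steap2 was higher in kidney (7.29 and 3.87 FPKM) and Slc11a1, the phagosomal metal transporter of macrophages, in lung (3.65 and 3.0 FPKM), but with median-of-ratios scaling Slc11a1 was not called in lung (0.35) and was called higher in liver instead (1.09). With that scaling none of these 6 genes was called in lung, where 15.1% of all genes were higher and 16.9% lower. In liver, 3 were then higher (Steap3, Steap4 and Slc11a1), where 13.3% of all genes were, and 1 was lower (Steap1), where 14.6% were. The scavenging proteins of heme and hemoglobin were abundant in liver, Hpx, hemopexin, at 2404 and 2771 FPKM and Hp at 1183 and 1199 FPKM, and Hp also reached 556 and 526 FPKM in lung. Of the 13 heme genes, liver had 5 higher and 2 lower as deposited, against 6.56% and 32.7% of all genes, and 5 and 1 with median of ratios, against 13.3% and 14.6%. Lung went from 4 and 3 (40.7% and 8.26%) to 1 and 4 (15.1% and 16.9%), and kidney from 3 and 5 (8.65% and 16.1%) to 4 and 4 (12.3% and 12.7%). Small intestine had 2 and 4 under both, against 13.7% and at most 12.2% of all genes, where Slc46a1 and the heme exporter Flvcr1 were the higher pair.

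Of the 19 hepcidin control genes tested, liver had 5 higher and 8 lower as deposited, where 6.56% and 32.7% of all genes were called, and 6 and 3 with median-of-ratios scaling, where 13.3% and 14.6% were. Lung went from 10 and 2 (40.7% and 8.26% of all genes) to 4 and 3 (15.1% and 16.9%). Kidney went from 0 and 11 (8.65% and 16.1%) to 1 and 9 (12.3% and 12.7%), and small intestine from 3 and 7 (13.7% and 11.3%) to 2 and 7 (13.7% and 12.2%). Among the BMP targets of this list, Id1 was 73.1 and 74.8 FPKM in lung, 50.7 and 42.7 FPKM in small intestine, where it was also called higher (2.18), and 0.847 and 1.17 FPKM in liver, and Smad6 was 38.7 and 54.2 FPKM in lung and 0.681 and 1.57 FPKM in liver. Atoh8 did not follow them, with means of 7.69 FPKM in liver, 6.25 FPKM in lung, 1.04 FPKM in small intestine and 0.634 FPKM in kidney, and was called higher in liver under both scalings (1.56 and 2.48). Summed endothelial markers were 247 and 292 FPKM in lung and at most 12.7 FPKM elsewhere, and their part in the lung values was not tested. Of the 4 genes of iron regulatory proteins and their sensing, Epas1, which encodes the hypoxia-inducible factor HIF-2α, was 362 and 445 FPKM in lung and at most 18.3 FPKM elsewhere, and Fbxl5, the iron-sensing ligase subunit, was higher in small intestine (8.77 and 10.5 FPKM). Of the 7 mitochondrial genes, kidney had 2 higher and 1 lower as deposited, against 8.65% and 16.1% of all genes, and 3 and 0 with median of ratios, against 12.3% and 12.7%. Lung had 1 and 0, against 40.7% and 8.26%, and then 0 and 3, against 15.1% and 16.9%. Liver had 1 and 2, against 6.56% and 32.7%, and then 2 and 0, against 13.3% and 14.6%. Small intestine had 1 and 2, against 13.7% and 11.3%, and then 1 and 3, against 13.7% and 12.2%, where the importer Slc25a37 was higher (11.1 and 24.2 FPKM).

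Over the 8 libraries, the genes whose centred log2(FPKM + 1) profiles lay nearest to each iron gene were found by the root mean square difference. For Hamp these were Mat1a (0.45), Wfdc21 (0.503) and Rbp4 (0.521). For Tfr2 they were Cyp2d40 (0.0998), Abcb11 (0.109) and Hal (0.141), and for Trf they were Mst1, Gm4951 and Igf1. Heph was nearest to Mgat4a (0.110), Ttc22 (0.226) and Trim15 (0.278), and Tfrc to Cers6 (0.139), Atp6v0a2 (0.187) and Ogdh (0.196). Slc40a1 was nearest to Scp2-ps2, Shpk and Decr2, Slc11a2 to Nacc2, Zfp768 and Xpr1, Hfe to Mgll, Sult5a1 and Grb14, Cybrd1 to Sh2d2a, Smpd5 and Ikzf3, and Hamp2 to Gm37072, Gm40770 and Gm47451. All points share the same 8 libraries, so that these distances are descriptions only.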

How the data were processed

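Poly(A) RNA from kidney, lung, liver and small intestine was sequenced without a treatment, 2 libraries per tissue. The authors selected reads by index with bbduk, mapped them with STAR 2.5.3a to the Ensembl release 75 mouse genome and deposited FPKM values made with DESeq2, scaled by library size. The counting program and its use of strand are not given in the sources used here. The 10 genes, the iron lists and the markers were chosen with earlier results of these data known. The counts over all lists together are given for every tissue, and those of single lists only in part. The genes named from the lists are those whose role touches the 10 or that were picked after their values were seen.

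Depth, 9164170 to 21444568 reads, and reads per gene were recovered from FPKM steps and GENCODE M21 exon lengths, and 94.5% to 96.1% of low values came out whole within 0.02 reads. Genes with at least 1 FPKM in 2 or more of the 8 libraries (16328) were tested on log2(FPKM + 1) with limma 3.58.1 in R 4.3.3 (trended eBayes, all 8 libraries in 1 fit), with Benjamini-Hochberg adjustment over all of them. Single values were also given an exact permutation test over libraries. On simulated data for the liver comparison, 87.3% of 3-fold and 99.5% of 6-fold changed genes that passed the filter were recovered, with 10.9% and 6.57% false calls. Whether these rates hold for genes on few reads, or with the shifts of the typical gene between tissues given above, was not tested. Alternatives were another pseudocount, no filter, median-of-ratios scaling, quantile normalization, no trend, a replicate block, limma-voom on recovered reads and leaving out each library. Python 3.11.15, pandas 2.3.3 and scipy 1.17.1 were used. Sequences are from RefSeq (GRCm38.p6) and GENCODE M21 (GRCm38); positions are 1-based.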

Additional observations from a re-analysis of the deposited data

How the results depend on the processing

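Over 70 single differences of the 10 genes and 1001 alternative values, 897 kept their direction and side of the threshold, 47 passed it newly, 25 lost it and 32 turned direction. The cause was not tested. Alternatives in which a gene no longer passed the filter gave no value and are not counted here. Leaving out the filter, leaving out the trend and adding a replicate block each left all 70 the same. Scaling moved most. Median-of-ratios scaling left 9 of the 10 genes to test, without Cybrd1, and quantile normalization all 10. With median of ratios, 15.1% of all genes were higher and 16.9% lower in lung, and 14.6% were lower in liver. Such shares were not worked out for quantile normalization. With median of ratios and with quantile normalization, 0 and 0 of the genes were higher and 6 and 6 lower in lung, and 1 and 1 were lower in liver. Of the list genes, 9 and 13 were higher and 16 and 16 lower in lung, and 8 and 8 were lower in liver. In the same order, the log2 difference turned for Slc11a2 in lung (-0.91, -0.83), small intestine over kidney (-0.10, -0.15) and lung over liver (-0.57, -0.48), for Heph (-0.12, -0.45) and Tfr2 (-0.11, -0.37) in lung over kidney, for Tfrc (-0.27, -0.18) and Hfe (-1.30, -0.80) in lung over liver, and for Trf in small intestine over kidney (-0.0450, -0.13). Quantile normalization alone turned Cybrd1 in kidney over liver (-0.0288). In lung, a pseudocount of 0.1 turned Hamp (0.22) and Trf (0.83), and limma-voom on recovered reads turned Hamp (0.22), Trf (1.35) and Heph (0.0759).

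Leaving out each library gave 3 to 6 genes higher in liver, 1 to 2 higher in lung and 1 to 2 lower in lung. The 3 came without liver replicate 1, when Hamp2 and Tfr2 no longer passed the filter in 2 libraries. The ranges that crossed 0 were -0.0381 to 0.69 for Slc11a2 in kidney, -0.0242 to 0.22 for Slc11a2 in lung, -0.27 to 0.50 for Tfrc in kidney, -0.17 to 0.56 for Slc11a2 in small intestine over kidney, -0.19 to 0.54 for Slc11a2 and -0.18 to 0.59 for Tfrc in kidney over lung, -0.0801 to 0.13 for Tfr2 in lung over kidney, and -0.0930 to 0.12 for Trf in small intestine over kidney. Same-numbered libraries did not deviate together (correlations of -0.217 to 0.0528 over 16328 genes), and the numbers were not taken as pairs. Since each mouse gave every tissue and the numbering may differ between tissues, this does not show that the libraries are independent. The replicate block left every call in place, with 5 genes higher in liver. With 2 libraries per tissue, and with Hamp2, Cybrd1 and lung or kidney Hamp resting on few reads, differences at low levels were not detectable with precision.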
